A study of Rattus norvegicus with 16 samples.

Results

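Pvalb, Calb1, Calb2, Vip, Cck, Reln, Lhx6, Nos1, Penk and Tac1 are peptides, calcium buffers and other molecules by which classes of inhibitory interneurons are told apart. They were taken by gene symbol from the deposited FPKM tables of rat hippocampus and hypothalamus, at the locus with the highest mean where a symbol had several. All 10 were found in both tables, out of 16514 symbols in either. Poly-A RNA was sequenced from male Sprague Dawley rats that had been given fructose for 6 weeks, or from untreated control rats of the same strain and sex, and the labels list 4 samples for each group and tissue. The hypothalamus table has a column for 3 of the 4 fructose samples, so 15 libraries were used: 3 fructose and 4 control in hypothalamus, 4 fructose and 4 control in hippocampus. The age of the rats, the dose and route of fructose, and whether a sample is 1 rat or a pool are not stated in the labels. The p-values therefore measure the spread between these samples only. FPKM counts fragments per length of transcript and per depth of sequencing, so levels of different genes can be set side by side.

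Inhibitory interneurons release GABA and are sorted into classes by what else they make. Parvalbumin (Pvalb), calbindin (Calb1) and calretinin (Calb2) are calcium-binding proteins that buffer the calcium entering with each impulse. Vasoactive intestinal peptide (Vip), cholecystokinin (Cck), proenkephalin (Penk, the precursor of enkephalins) and the tachykinin precursor of substance P (Tac1) are released peptides or their precursors, Reln is a secreted glycoprotein of cell positioning and synapses, Nos1 makes nitric oxide in neurons, and Lhx6 is a transcription factor of interneurons born in the medial ganglionic eminence. None of them is limited to interneurons: hippocampal granule and pyramidal cells make calbindin and cholecystokinin, and many hypothalamic neurons are peptidergic.

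Promoter sequence from RefSeq (build GRCr8) was at hand for 6 of the 10 genes. The 250 bases before the annotated start are shown for Tac1, Vip and Reln, because these are the genes of the 6 whose control libraries did not overlap between the regions. Capitals mark matches to 4 short motifs that were searched on both strands: TGACG or CGTCA, the core of the cyclic AMP response element; TATAAA or TTTATA, the TATA box; GGGCGG or CCGCCC, the GC box; and CACGTG, an E-box. All run 5′ to 3′ on the plus strand, at chr4:36645333-36645582 (Tac1), chr1:44470230-44470479 (Vip) and chr4:13628318-13628567 (Reln).
Tac1: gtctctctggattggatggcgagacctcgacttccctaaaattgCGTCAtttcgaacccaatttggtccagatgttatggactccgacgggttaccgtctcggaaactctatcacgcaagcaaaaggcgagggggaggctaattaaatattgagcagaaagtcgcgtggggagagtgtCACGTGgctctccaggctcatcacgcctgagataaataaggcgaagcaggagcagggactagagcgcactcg
Vip: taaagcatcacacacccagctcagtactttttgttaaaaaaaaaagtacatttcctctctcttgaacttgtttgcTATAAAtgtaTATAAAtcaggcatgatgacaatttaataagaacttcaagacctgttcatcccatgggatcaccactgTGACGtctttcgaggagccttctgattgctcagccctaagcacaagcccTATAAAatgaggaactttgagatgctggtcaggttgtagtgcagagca
Reln: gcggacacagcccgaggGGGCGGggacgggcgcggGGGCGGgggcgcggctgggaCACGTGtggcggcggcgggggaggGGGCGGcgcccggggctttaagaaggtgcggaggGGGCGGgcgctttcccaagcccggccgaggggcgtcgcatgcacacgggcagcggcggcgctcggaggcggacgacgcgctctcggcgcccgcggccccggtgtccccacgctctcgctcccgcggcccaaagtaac
Tac1, which was higher in hypothalamus, held 1 CGTCA and 1 CACGTG. Vip, which was lower in hypothalamus, held 3 TATAAA and 1 TGACG, while Reln, also lower there, held 4 GGGCGG and 1 CACGTG, and none of the marked matches overlapped another. Among 33469 promoter windows of the same length, 18.2% held the cyclic AMP motif, 12.9% the TATA box, 30.5% the GC box and 5.59% the E-box. The Reln window had 80% G and C, the Tac1 window 52.4% and the Vip window 40%, beside a median of 51.2% over all windows. A match describes the letters and is not a measured binding site.

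In each tissue, the libraries numbered 1 in the fructose and control groups were unlike the rest. Across loci, that pair had r = 0.98 on the log2 scale in hypothalamus, and 0.88 to 0.909 with the other libraries. In hippocampus the same values were 0.985 and 0.84 to 0.896. Read depth is not given with FPKM, and library totals were 435105 to 492778 FPKM in hypothalamus and 353703 to 402099 FPKM in hippocampus. The tissue labels fitted the regional markers: 10 hypothalamus markers summed to 3339 to 8927 FPKM in hypothalamus and 3.80 to 28.6 FPKM in hippocampus, and 7 hippocampus markers to 45.4 to 52.3 FPKM in hypothalamus and 299 to 499 FPKM in hippocampus. Fibcd1, a hippocampus marker, was listed at 0 in every library, and Otp, a hypothalamus marker, in every hippocampal library.

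The comparison of the regions in control rats asks how the interneuron markers are distributed between hypothalamus and hippocampus. Calretinin, the substance P precursor and proenkephalin were higher in hypothalamus by 11.0-fold, 8.92-fold and 7.20-fold, and cholecystokinin, reelin and vasoactive intestinal peptide were lower there. For Pvalb, Calb1, Nos1 and Lhx6 the regions overlapped. Thus 3 of 10 members lay higher in every hypothalamic control library than in any hippocampal one, where 33.7% of the 10583 symbols compared did so, and 3 lay lower, where 17.5% did. The share of members higher is near that of all symbols, and the share lower is above it. With 10 members, neither share can be read as a trait of these markers. The tables were made separately for each tissue, so no test was run between them. In tissue RNA, a lower level from fewer cells of a type and from less RNA per cell cannot be told apart.

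Calb2 was at 77.6, 232, 111 and 140.1 FPKM in replicates 1 to 4 of hypothalamus controls, against 8.62, 7.52, 27.0 and 7.85 FPKM in those of hippocampus controls. Every hypothalamic value was above every hippocampal one, and hippocampal replicate 3 was more than 3 times the other hippocampal values. The means were 140.3 ± 66.4 FPKM in hypothalamus and 12.7 ± 9.51 FPKM in hippocampus (SD, n = 4 each), a difference of 3.45 on the log2(FPKM + 1) scale, which was 3.86 without hippocampus control replicate 3.

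Penk was at 177, 224, 190.4 and 201 FPKM in hypothalamus controls, against 25.3, 23.1, 25.7 and 35.9 FPKM in hippocampus controls. It was the most abundant of the 10 in hypothalamus and the one with the least relative spread there. Tac1 was at 56.8, 48.8, 31.0 and 31.9 FPKM in hypothalamus controls, against 4.72, 5.02, 4.86 and 4.30 FPKM in hippocampus controls. The hippocampal Tac1 values lay within 1 FPKM of each other. The log2 differences were 2.82 for Penk and 2.87 for Tac1. The 9 striatal spiny neuron markers found summed to 92.9 to 155 FPKM in hypothalamus controls and 54.2 to 67.9 FPKM in hippocampus controls. Of these 9, 5 were higher and 2 lower in hypothalamus without overlap, beside 33.7% and 17.5% of all symbols. Ppp1r1b was the largest, at means of 82.8 and 32.1 FPKM. The part of these markers in the Penk and Tac1 values was not tested.

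Cck was at 72.8, 138.0, 49.3 and 74.0 FPKM in hypothalamus controls, against 457, 234, 204.5 and 178 FPKM in hippocampus controls. Hippocampus control replicate 1 was far above the others, but the lowest hippocampal library was still above the highest hypothalamic one. Vip was at 3.85, 4.42, 1.49 and 3.67 FPKM in hypothalamus controls, against 10.4, 9.53, 7.66 and 7.41 FPKM in hippocampus controls. Reln was at 10.6, 8.94, 8.01 and 8.48 FPKM in hypothalamus controls, against 26.0, 22.4, 19.5 and 17.2 FPKM in hippocampus controls. These 3 genes were 3.21-fold, 2.61-fold and 2.36-fold higher in hippocampus controls by the ratio of means.

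The other 4 members shared part of their range between the regions. Pvalb was at 81.0, 137, 53.5 and 99.2 FPKM in hypothalamus controls, against 62.7, 55.2, 46.0 and 34.8 FPKM in hippocampus controls. Calb1 was at 92.9, 60.8, 56.7 and 42.5 FPKM in hypothalamus controls, against 33.8, 42.8, 30.6 and 24.3 FPKM in hippocampus controls. In both buffers the lowest hypothalamic library was below the highest hippocampal one, and for Calb1 the gap between them was under 1 FPKM. Nos1 was at 6.94, 8.20, 7.21 and 5.45 FPKM in hypothalamus controls, against 5.03, 4.92, 5.64 and 2.92 FPKM in hippocampus controls. Lhx6 was at 2.04, 2.69, 3.22 and 5.04 FPKM in hypothalamus controls, against 2.65, 3.04, 3.25 and 2.53 FPKM in hippocampus controls. Its means of 3.25 FPKM in hypothalamus and 2.87 FPKM in hippocampus differed by less than its SD in hypothalamus, 1.29 FPKM. Without hypothalamus control replicate 4, both Calb1 and Nos1 no longer overlapped, and 5 members were higher in hypothalamus. Calb1 has a second locus in the hippocampus table, and with the loci summed its log2 difference between the regions in controls was 0.30, against 0.89 at the first locus.

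**Figure D1:**
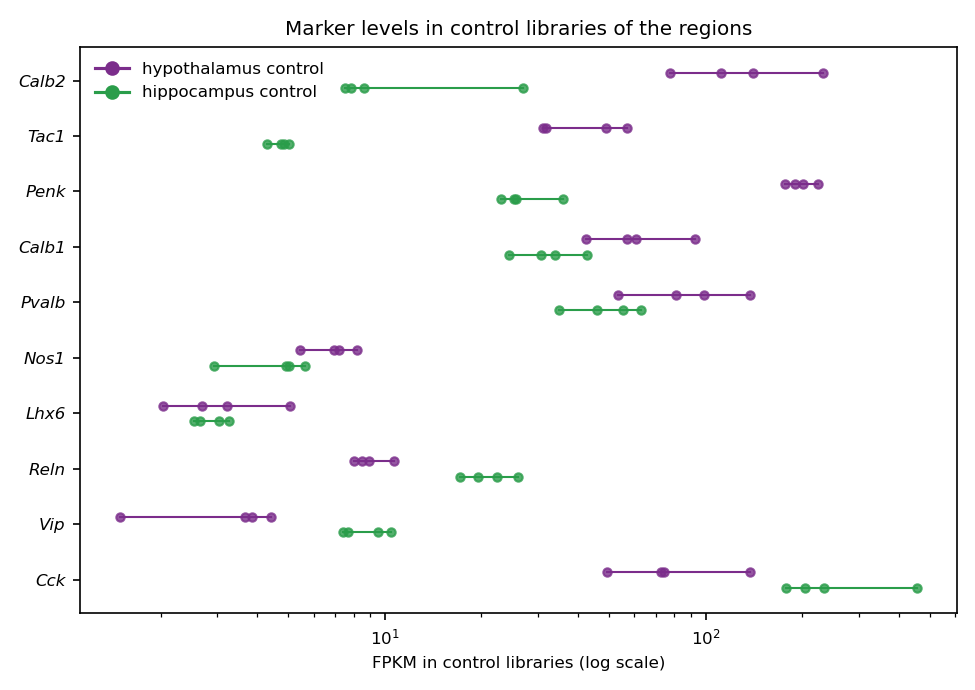
FPKM on a log axis of each marker in the 4 hypothalamus control libraries (purple, upper of each pair) and the 4 hippocampus control libraries (green); points are libraries and lines join the lowest and highest. Calb2, Tac1 and Penk lie apart with hypothalamus higher, Reln, Vip and Cck with hypothalamus lower, and the other 4 overlap.

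The fructose libraries, which were not used in the control comparison, gave the same side for the 3 higher members and for Cck and Reln. Calb2 was 18.5-fold, Tac1 11.9-fold and Penk 8.70-fold higher in hypothalamus fructose libraries than in hippocampus fructose libraries. Pvalb, Calb1 and Nos1 also did not overlap there, with ratios of 2.32, 2.19 and 1.87, so 6 members were higher in hypothalamus where 34.2% of 10533 symbols were. With its 2 hippocampal loci summed, Calb1 overlapped here too, at a ratio of 1.41, and 5 members were higher. Vip overlapped in the fructose libraries, and 2 members, Cck and Reln, were lower, where 18.5% of symbols were. These comparisons were added after the values were seen.

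Ordered by their mean in hypothalamus controls, the markers ran Penk, Calb2, Pvalb, Cck, Calb1, Tac1, Reln, Nos1, Vip and Lhx6. Neighbours in this order overlapped except Tac1 with Reln and Nos1 with Vip. In hippocampus controls the order was Cck, Pvalb, Calb1, Penk, Reln, Calb2, Vip, Tac1, Nos1 and Lhx6, and only Cck with Pvalb and Vip with Tac1 did not overlap as neighbours. With its loci summed, Calb1 was at 35.0, 66.8, 49.1 and 51.0 FPKM in hippocampus controls, a mean of 50.5 FPKM, which placed it before Pvalb at 49.7 FPKM, with overlapping ranges. Cck, at 268.4 ± 128 FPKM in hippocampus controls (SD, n = 4), was above 99.0% of hippocampal loci by control mean. Penk, at 198 ± 20.1 FPKM in hypothalamus controls, was above 98.0% of hypothalamic loci. Lhx6 was the lowest member in both regions, above 45.7% of loci in hypothalamus and 46.9% in hippocampus.

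In hypothalamus, the comparison of fructose with control libraries asks whether sugar intake goes with a different level of these markers. No marker passed the test: 0 of 10 were called by limma at an adjusted p of 0.05, where 0.0087% of 11498 loci were (1 locus), and 0 of 10 had an unadjusted p under 0.05, which 3.14% of loci had. Vip had the highest estimate and Lhx6 the lowest. For all 10 the groups overlapped, where 1.75% of loci had every fructose library above every control and 1.58% below. The estimates lay above 0 for 7 of 10 members and below 0 for 3, beside 51.5% and 48.5% of all loci tested, with a median of 0.10 on the log2(FPKM + 1) scale. The limma adjusted p was 0.999829 for each member. The highest hypothalamic library was a control for 5 of 10 members, where this held for 50.4% of loci, and the lowest a fructose library for 4 of 10, where this held for 46.2%.

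Vip was at 7.38, 2.86 and 4.58 FPKM in fructose replicates 1 to 3, against 1.49 to 4.42 FPKM in the 4 controls. Fructose replicates 1 and 3 were above every control and replicate 2 was below 3 of the 4. The log2 difference was 0.43 ± 0.35 (SE, limma, 95% interval -0.37 to 1.24), and without fructose replicate 1 it was 0.15. Lhx6 was at 3.28, 2.19 and 1.69 FPKM in fructose libraries, against 2.04 to 5.04 FPKM in controls. Its difference of -0.31 ± 0.27 (SE, limma, 95% interval -0.92 to 0.31) was -0.63 without both replicate 1 libraries, with a limma unadjusted p of 0.0336 and an adjusted p of 0.505, and -0.12 without control replicate 4. The estimates of Vip and Lhx6 thus moved with single libraries.

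Nos1 was at 6.54, 9.69 and 8.86 FPKM in fructose libraries, against 5.45 to 8.20 FPKM in controls, a log2 difference of 0.23 ± 0.18 (SE, limma, 95% interval -0.19 to 0.65). Its replicate 2 and 3 fructose libraries were above all controls and replicate 1 was not. Penk was at 202, 237 and 189 FPKM in fructose libraries, against 177 to 224 FPKM in controls. It had the narrowest interval of the 10, a log2 difference of 0.08 with limma 95% bounds of -0.24 and 0.39. Reln was at 9.75, 5.95 and 8.91 FPKM in fructose libraries, against 8.01 to 10.6 FPKM in controls, with fructose replicate 2 the lowest of the 7 libraries.

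Among the calcium buffers, Pvalb was at 96.6, 97.0 and 107 FPKM in fructose libraries, all inside the control range of 53.5 to 137 FPKM. Calb2 was at 112, 164 and 151 FPKM in fructose libraries, inside the control range of 77.6 to 232 FPKM. Cck was at 73.3, 109.5 and 75.8 FPKM in fructose libraries, again inside the control range of 49.3 to 138.0 FPKM. The spread of the fructose libraries was thus smaller than that of the controls for these 3 genes, and the highest library of each was control replicate 2. Calb1 was at 106, 58.8 and 38.1 FPKM in fructose libraries, against 42.5 to 92.9 FPKM in controls. Tac1 was at 74.0, 29.6 and 24.7 FPKM in fructose libraries, against 31.0 to 56.8 FPKM in controls. For both Calb1 and Tac1 the replicate 1 library was the highest of its own group, in fructose and in control, and the lowest of all 7 libraries was fructose replicate 3. Without both replicate 1 libraries their log2 differences were -0.15 and -0.42, against 0.03 and -0.10 with all libraries.

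Slc17a6, a vesicular glutamate transporter in the list of thalamus markers, was at 90.9 FPKM in fructose replicate 1, against 28.2 and 34.2 FPKM in the other fructose libraries. It was at 83.6 FPKM in control replicate 1, against 21.7 to 41.1 FPKM in the other controls. The sum of all 8 thalamus markers was highest in the replicate 1 libraries, at 145 FPKM in fructose and 136 FPKM in control, against 85.1 to 123 FPKM in the other 5 libraries. This rested on Slc17a6: the other 7 markers summed to 54.6 FPKM in fructose replicate 1 and 61.5 to 88.9 FPKM in the other fructose libraries, and to 52.8 FPKM in control replicate 1 and 48.3 to 74.6 FPKM in the other controls. None of the 8 was listed at 0 in all libraries. The part of Slc17a6 and the other markers in the Calb1 and Tac1 values was not tested.

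**Figure D2:**
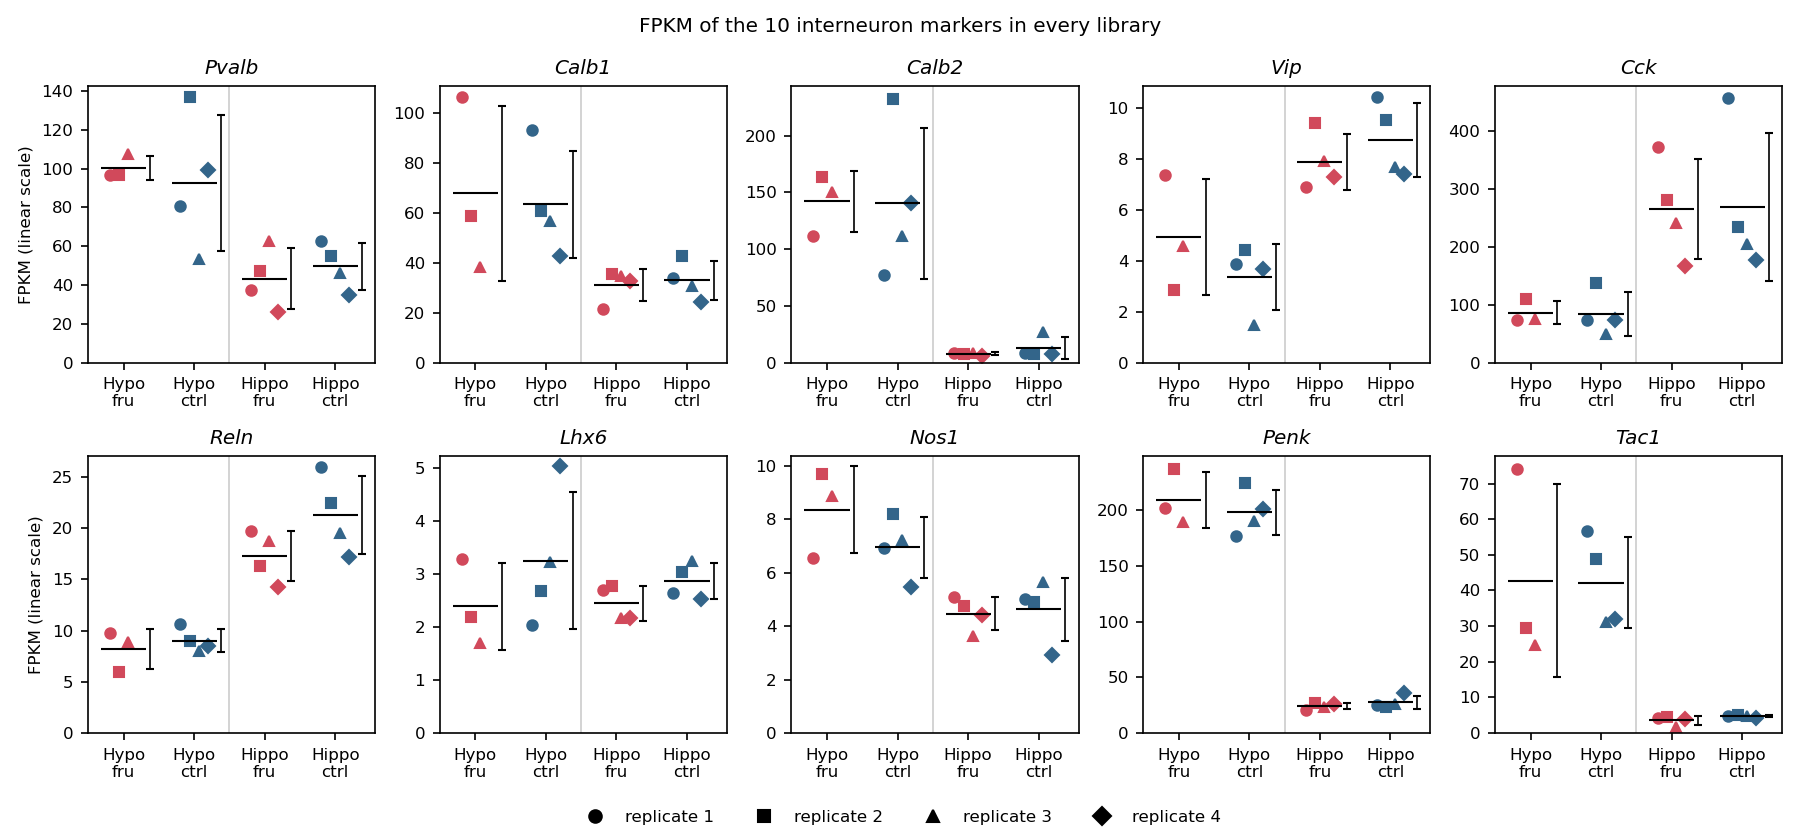
FPKM (linear axes that start at 0) of the 10 markers in each library, with fructose in red and control in blue, hypothalamus left of the grey line and hippocampus right of it; marker shapes give the replicate, the horizontal line is the group mean and the bar beside it is 1 SD. Fructose and control overlap in every panel, and Calb2, Penk and Tac1 show the widest gap between the regions.

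In hippocampus, fructose and control libraries overlapped for all 10 markers as well, where 0.255% of loci had every fructose library above every control and 0.413% below. Of the members, 0 of 10 passed the limma test, where 0% of 11385 loci did. None had an unadjusted p under 0.05, which 0.808% of all loci had. The estimates were below 0 for 9 of 10 members, where 51.4% of loci were below and 48.6% above 0, and ranged between -0.47 for Calb2 and 0.03 for Cck with a median of -0.17. All of these lie within 0.5 of 0 on the log2(FPKM + 1) scale, and the limma adjusted p was 0.999905 for each. The highest hippocampal library was a control library for 10 of 10 members, where this held for 50.2% of loci, and the lowest was a fructose library for 9 of 10, where this held for 46.9%. The members share libraries and are not independent of each other.

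Reln had the lowest unadjusted p of the 10. It was at 19.7, 16.3, 18.7 and 14.3 FPKM in fructose replicates 1 to 4, against 26.0, 22.4, 19.5 and 17.2 FPKM in control replicates 1 to 4. Each fructose value was below the control of the same number, and the groups overlapped between 17.2 and 19.7 FPKM. The means were 17.2 ± 2.45 FPKM in fructose and 21.3 ± 3.81 FPKM in control libraries (SD, n = 4 each), and the log2 difference was -0.28 ± 0.16 (SE, limma unadjusted p = 0.105, 95% interval -0.64 to 0.07). With the replicate number as a block the limma unadjusted p was 0.0377 and the adjusted p was 0.999674. What the number stands for is not stated in the labels, so libraries of the same number may not be pairs.

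Tac1 was at 4.16, 4.62, 1.70 and 3.93 FPKM in fructose libraries, against 4.30 to 5.02 FPKM in controls. Replicates 1, 3 and 4 of fructose were below every control, with replicate 3 far below the rest. The log2 difference of -0.37 ± 0.23 (SE, limma, 95% interval -0.89 to 0.15) was -0.13 without fructose replicate 3. Calb2 was at 8.64, 7.74, 8.56 and 5.85 FPKM in fructose libraries, against 7.52 to 27.0 FPKM in controls. Its log2 difference of -0.47 ± 0.37 (SE, limma, 95% interval -1.32 to 0.38) was -0.06 without control replicate 3, the library at 27.0 FPKM. The estimates of Calb2 and Tac1 had the greatest size in hippocampus. That of Calb2 rested mostly on 1 library, and lay between -0.63 and -0.06 when any 1 library was left out. That of Tac1 shrank without 1 library but lay between -0.48 and -0.13 in the same fits.

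In hippocampus control replicate 3, the one with high Calb2, the 8 thalamus markers summed to 85.6 FPKM, the highest of the 8 libraries, which ranged over 34.1 to 79.8 FPKM in fructose and 44.4 to 85.6 FPKM in controls. The next highest sums were 79.8 FPKM in fructose replicate 4 and 69.6 FPKM in control replicate 4, where Calb2 was at 5.85 and 7.85 FPKM. Prkcd and Zic1 of this list were at 37.7 and 21.8 FPKM in control replicate 3, each the highest control value. In fructose libraries they reached 37.0 and 13.3 FPKM, where Calb2 was at most 8.64 FPKM. Plekhg1, also of this list, was at 6.73 to 17.2 FPKM in controls and 9.42 to 14.7 FPKM in fructose libraries. The tachykinin receptor Tacr3 was at 6.87 FPKM there, against 1.90 to 3.99 FPKM in the fructose libraries and 2.32 to 3.94 FPKM in the other controls, a gene picked for its value. Other lists were at an extreme in control replicate 3 as well. Cajal-Retzius markers, for reelin-making cells of the hippocampal surface, summed to 2.99 FPKM there, against 0.967 to 2.25 FPKM in other libraries. Oligodendrocyte markers summed to 4704 FPKM, against 1734 to 3902 FPKM in other libraries. Dentate granule cell and hippocampus markers summed to 91.5 and 302 FPKM, the lowest of the controls. The lowest fructose sums were 85.3 and 299 FPKM. The part of all these markers in the Calb2 value was not tested.

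Pvalb, the buffer of fast-spiking basket cells, was at 37.5, 47.4, 62.6 and 25.9 FPKM in fructose libraries, against 34.8 to 62.7 FPKM in controls. Calb1 was at 21.4, 35.5, 34.5 and 32.6 FPKM in fructose libraries, against 24.3 to 42.8 FPKM in controls. Penk was at 20.6, 26.8, 23.3 and 25.6 FPKM in fructose libraries, against 23.1 to 35.9 FPKM in controls. In these 3 genes 1 fructose library lay below all controls and the others inside their range. Cck was at 373, 281, 240.3 and 167 FPKM in fructose libraries, against 178 to 457 FPKM in controls, and in both groups it was highest in replicate 1 and lowest in replicate 4. Vip was at 6.90, 9.41, 7.92 and 7.31 FPKM in fructose libraries, against 7.41 to 10.4 FPKM in controls. Lhx6 was at 2.70, 2.77, 2.17 and 2.16 FPKM in fructose libraries, against 2.53 to 3.25 FPKM in controls. Fructose replicates 3 and 4 were below all controls for Lhx6, and replicates 1 and 4 for Vip. Nos1 was at 5.07, 4.74, 3.63 and 4.43 FPKM in fructose libraries, all inside the control range of 2.92 to 5.64 FPKM.

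**Figure D3:**
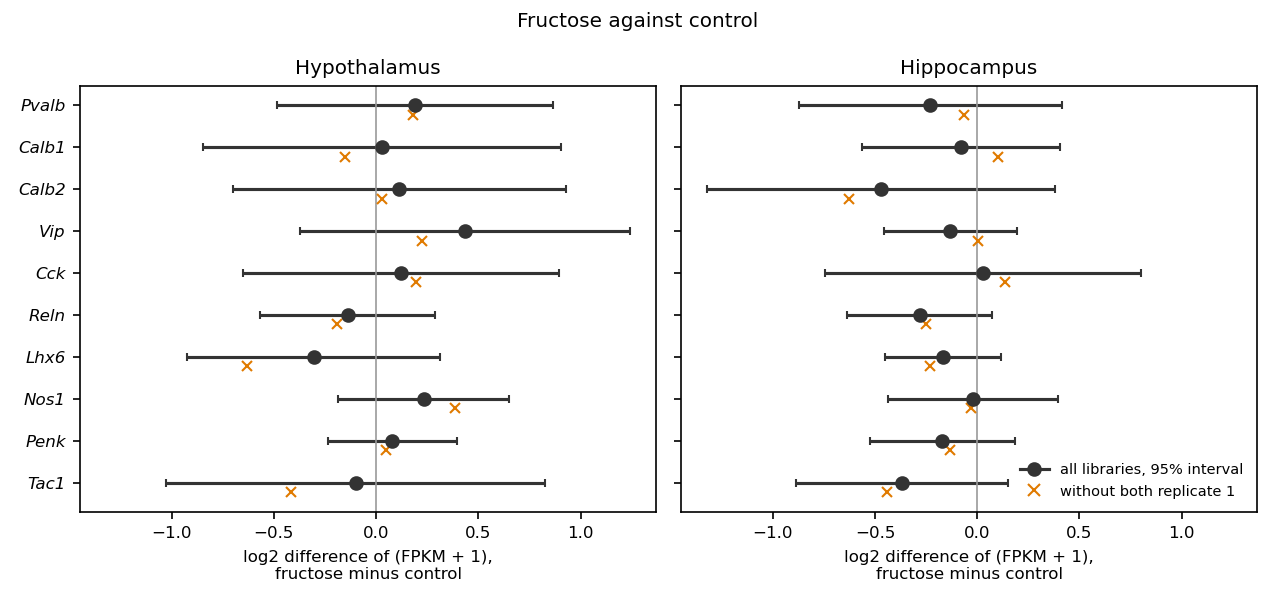
Log2 difference of (FPKM + 1), fructose minus control, for each marker in hypothalamus (3 fructose, 4 control libraries) and hippocampus (4 and 4); circles and bars are the limma estimate and its 95% interval, crosses the estimate without both replicate 1 libraries. Every interval spans 0, and the estimates run between -0.31 and 0.43 in hypothalamus and between -0.47 and 0.03 in hippocampus.

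The intervals show how large a change these libraries leave room for in a fit without the replicate number. The distance of the replicate 1 libraries from the rest thus counts as spread in the intervals. At a limma unadjusted p under 0.05, 117 hypothalamic loci were higher and 244 lower in fructose with all libraries. Without both replicate 1 libraries they were 545 and 520. In hippocampus the numbers were 38 and 54 with all libraries, and 69 and 83 without that pair. In hypothalamus the bounds of the 10 intervals reached -1.03 (Tac1) and 1.24 (Vip) on the log2 scale, and in hippocampus -1.32 (Calb2) and 0.80 (Cck). The narrowest in hippocampus was that of Lhx6, -0.45 to 0.12. A missed threshold with intervals of this width does not show that the markers were equal in fructose and control rats.

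An interaction term, fitted over 9931 symbols, tested whether fructose went with unlike differences in hypothalamus and hippocampus. The fit took all libraries as independent. Samples of the same number were not paired between the tissues, as what a number stands for is not stated in the labels. No member passed: 0 of 10 were called by limma, where 0% of symbols were, and 0 of 10 had an unadjusted p under 0.05, where 2.31% of symbols did. The difference of differences, hypothalamus minus hippocampus, was above 0 for 9 of 10 members, beside 54.6% of symbols. It was highest for Calb2, at 0.58 ± 0.53 (SE, limma adjusted p = 0.999884), and for Vip, at 0.57 ± 0.37, and lowest for Lhx6, at -0.14 ± 0.28. Without hippocampus control replicate 3 the value for Calb2 was 0.17.

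Calb1 and Reln each have a second locus in the hippocampus table, so that reads of these genes may be divided between loci and their levels are uncertain. The second Calb1 locus was at 0.389, 19.8, 18.9 and 29.7 FPKM in fructose replicates 1 to 4, against 1.14, 24.0, 18.5 and 26.7 FPKM in control replicates 1 to 4. It was near 0 in both replicate 1 libraries and close to the first locus in both replicate 4 libraries. Of all 11385 hippocampal loci tested, 3.36% had both replicate 1 libraries under 0.1 times the lowest other library, as had 1.97% of the hypothalamic loci. The second Reln locus was at 0, 2.41, 0.00716 and 13.8 FPKM in fructose libraries, against 0, 7.17, 0 and 8.86 FPKM in controls, and here too replicate 4 was the highest of each group.

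With its loci summed, Calb1 was at 21.8 to 62.3 FPKM in fructose libraries and 35.0 to 66.8 FPKM in controls, a log2 difference of -0.13 ± 0.32 (SE, limma adjusted p = 0.999842). Summed Reln was at 19.7, 18.7, 18.7 and 28.0 FPKM in fructose libraries, against 26.0, 29.6, 19.5 and 26.1 FPKM in controls. The summed fructose value of Reln was above the control of the same number in replicate 4, unlike at the first locus alone, and the log2 difference was -0.24 ± 0.17 (SE, limma unadjusted p = 0.188).

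**Figure D4:**
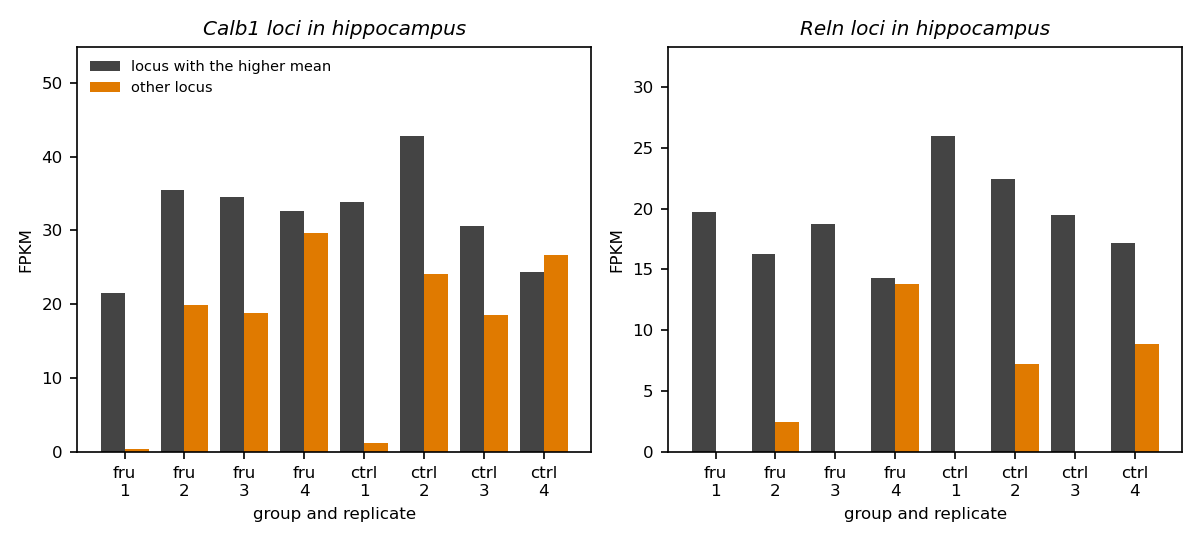
FPKM of the 2 loci of Calb1 and of Reln in each hippocampal library, fructose replicates left of control replicates; grey bars are the locus with the higher mean, used elsewhere, and orange bars the other locus. The second Calb1 locus is close to 0 in both replicate 1 libraries, and the second Reln locus is above 1 FPKM only in replicates 2 and 4.

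Around these markers, 37 other interneuron genes were listed, of which 31 were tested in hypothalamus and 28 in hippocampus, and 0 were called by limma in either direction or had an unadjusted p under 0.05 in either tissue. Their median log2 difference was 0.04 in hypothalamus and -0.12 in hippocampus, with 18 of 31 above 0 in hypothalamus and 18 of 28 below 0 in hippocampus. The smallest unadjusted p in hypothalamus was that of Maf, a transcription factor of interneurons from the medial ganglionic eminence, at 9.33 ± 2.99 FPKM in fructose (SD, n = 3) and 14.1 ± 3.61 FPKM in control libraries (SD, n = 4; limma adjusted p = 0.999829). Sox6, another such factor, was at 4.56 ± 1.02 FPKM in fructose and 3.13 ± 0.828 FPKM in control libraries, and Erbb4, the neuregulin receptor, at 3.64 ± 0.929 FPKM in fructose and 2.39 ± 0.581 FPKM in control libraries. In hippocampus the smallest was that of Dlx1, a homeobox factor of GABA neurons, at 4.70 ± 0.978 FPKM in fructose and 6.43 ± 1.37 FPKM in control libraries (SD, n = 4 each; limma adjusted p = 0.999905). Dlx2, another such factor, was at 1.15 ± 0.242 FPKM in fructose and 1.58 ± 0.321 FPKM in control libraries. For each of these 5 genes the groups overlapped.

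Between the regions, 12 of 31 other interneuron genes were higher and 7 lower in hypothalamus controls without overlap, beside 33.7% and 17.5% of all symbols compared. The median log2 difference was 0.37 for the list and 0.20 for all symbols. The peptide Npy was listed at 0 in every hippocampal library and in every hypothalamic control library. In the hypothalamic fructose libraries it was at most 0.0928 FPKM. Such values can be a failed estimate, and no level was read from them in either tissue.

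Receptors and signalling partners of the members were described in the same way. Of 25 listed, 20 were tested in hypothalamus and 17 in hippocampus, and 0 were called in either. Their median log2 difference was 0.13 in hypothalamus and -0.01 in hippocampus. In hypothalamus 3 had an unadjusted p under 0.05, where 3.14% of all loci did. Crkl, an adaptor of the reelin pathway, was at 5.59 ± 1.08 FPKM in fructose (SD, n = 3) and 3.49 ± 0.370 FPKM in control libraries (SD, n = 4; limma unadjusted p = 0.00750, adjusted p = 0.999829), without overlap. Its relative Crk was at 37.2 ± 4.90 FPKM in fructose and 27.1 ± 4.30 FPKM in control libraries, and Adcyap1r1, a receptor of the Vip-related peptide PACAP, at 84.5 ± 8.66 FPKM in fructose and 64.1 ± 9.18 FPKM in control libraries. For Adcyap1r1, too, every fructose library was above every control. In hippocampus 0 of the 17 had an unadjusted p under 0.05, and Tacr1, the substance P receptor, had the smallest, at 1.75 ± 0.349 FPKM in fructose and 2.36 ± 0.65 FPKM in control libraries (limma adjusted p = 0.999905).

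Of 24 related peptides and calcium buffers, 21 were tested in hypothalamus and 20 in hippocampus, and 0 were called. Cabp1, a calmodulin-like calcium-binding protein, was at 39.3 ± 5.54 FPKM in fructose (SD, n = 3) and 57.5 ± 11.0 FPKM in control hypothalamus (SD, n = 4; limma unadjusted p = 0.0266, adjusted p = 0.999829). Pnoc, the precursor of nociceptin, was at 33.1 ± 2.79 FPKM in fructose and 47.0 ± 15.2 FPKM in control hypothalamus without overlap. In hippocampus the dynorphin precursor Pdyn was at 15.8 ± 4.68 FPKM in fructose and 21.6 ± 7.65 FPKM in control libraries, and Adcyap1, which encodes PACAP, at 3.30 ± 0.731 FPKM in fructose and 2.25 ± 0.946 FPKM in control libraries, with overlap for both.

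No marker of other cells passed limma in either tissue at an adjusted p of 0.05. In hypothalamus 6 of 8 meningeal and 1 of 5 tested choroid plexus markers had a limma unadjusted p under 0.05, where 3.14% of loci did. In hippocampus 1 of 8 meningeal and 2 of 7 tested thalamus markers did, where 0.808% of loci did. The log2 differences of the 8 meningeal markers were below 0 in 8 of 8 in hypothalamus, with sums of 30.7 to 159 FPKM in fructose and 166 to 306 FPKM in control libraries, and above 0 in 8 of 8 in hippocampus, with sums of 163 to 610 FPKM in fructose and 32.5 to 358 FPKM in control libraries. The sums did not overlap in hypothalamus and overlapped in hippocampus, and none of the 8 was listed at 0 in all libraries. In hippocampus the 7 tested thalamus markers and the 6 oligodendrocyte markers were all below 0, with overlapping sums of 34.1 to 79.8 FPKM in fructose and 44.4 to 85.6 FPKM in control libraries for thalamus and 1734 to 3781 FPKM in fructose and 2488 to 4704 FPKM in control libraries for oligodendrocytes. The part of these markers in the values of the 10 interneuron genes was not tested. The 5 Cajal-Retzius markers in the table, for the reelin-making cells of the hippocampal surface, summed to 0.967 to 2.25 FPKM in fructose and 1.05 to 2.99 FPKM in control hippocampus, and 0 of them reached the minimum for testing. The 9 suprachiasmatic markers in the hypothalamus table are for a nucleus with many Vip neurons. They summed to 1247 to 3823 FPKM in fructose and 1768 to 3860 FPKM in control libraries. Most of this came from Avp, at means of 2395 FPKM in fructose and 2586 FPKM in control libraries. Avp is also among the hypothalamus markers, so the sum is no measure of that nucleus alone.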

How the data were processed

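Poly-A RNA libraries were sequenced, per the labels' protocols, on an Illumina instrument, with CASAVA 1.8.2 for demultiplexing. The deposited tables give FPKM per locus, made by the authors with Cufflinks, Cuffdiff, Bowtie, Bowtie2, TopHat and TopHat2 on rn5, as listed without versions or roles in the submitters' processing notes. Read counts are not in the tables and the depth of the libraries is unknown. Ratios of low FPKM values fell in common steps for replicates 2 to 4 (25% to 55.7% in the commonest bin) but not for the replicate 1 libraries (3.01% to 5.45%), and no count test was run.

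Groups follow the labels' tissue and treatment. Members and gene lists were chosen with earlier results of these data known. All 10 members are named in every comparison. Of the 3 lists of related genes, up to 4 per tissue with the smallest p could be named, and of each of the 10 marker lists up to 3 with the highest mean. Testing took loci whose mean reached 1 FPKM, on log2(FPKM + 1) with limma 3.58.1 (R 4.3.3; trended prior variance, group as the term, Benjamini-Hochberg at 0.05 over all loci), so fold changes of low genes are understated. The tables were normalized separately, so regions were compared without a test. The steps were tested on simulated data with independent noise and with shifts larger than any member's estimate. The unlike replicate 1 libraries were not simulated. That run therefore does not show whether changes of the size estimated for the members could be found. Figures used matplotlib 3.10.9 in Python 3.11.15.

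What a replicate number stands for is not stated in the labels. Deviations from group means of same-numbered libraries had r = 0.848, 0.488 and 0.456 in hypothalamus and 0.892, 0.208, 0.481 and 0.41 in hippocampus, all over 0.1, and a fit with the number as a block was an alternative. Over replicates 2 to 4 alone r was 0.265 and 0.0398 in hypothalamus and -0.223, 0.403 and 0.0893 in hippocampus. Other alternatives were a pseudocount of 0.1, no filter, median-of-ratios scaling, summed loci, and leaving out libraries.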

Additional observations from a re-analysis of the deposited data

Results flagged for a closer look

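Of 30 groups of 4 libraries examined (10 members in 3 groups; the hypothalamus fructose group has 3 libraries and was left out), 1 held a library far from the others. Calb2 in hippocampus control replicate 3 was at 27.0 FPKM, where the other controls were at 8.62, 7.52 and 7.85 FPKM. Chance alone would mark about 1 in 20 groups.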

How the results depend on the processing

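Under every alternative run, 0 of 10 members passed limma in hypothalamus, hippocampus or the interaction; the lowest adjusted p of a member over all of them was 0.505. The number of loci called in hypothalamus was 2 with the replicate block and 2 without both replicate 1 libraries, against 1, and 0 to 2 when a library was left out. In hippocampus it was 0 to 1, with 1 called without control replicate 3, and in the interaction 0 to 1. The block changed no member's call. Some log2 differences (fructose minus control) close to 0 changed sign: without both replicate 1 libraries, Calb1 was at -0.15 in hypothalamus, 0.10 in hippocampus and -0.26 in the interaction, and Vip at 0.0025 in hippocampus. With the replicate block, Calb1 was at -0.14 in hypothalamus and -0.059 in the interaction, and Lhx6 at 0.046 in the interaction. Leaving out 1 library gave, in hypothalamus, -0.044 to 0.40 for Pvalb, -0.35 to 0.38 for Calb1, -0.13 to 0.39 for Calb2, -0.095 to 0.39 for Cck, -0.26 to 0.050 for Reln, -0.014 to 0.15 for Penk and -0.57 to 0.20 for Tac1. In hippocampus it gave -0.21 to 0.081 for Calb1, -0.16 to 0.32 for Cck and -0.19 to 0.068 for Nos1. In the interaction it gave -0.27 to 0.46 for Calb1, -0.20 to 0.37 for Cck, -0.32 to 0.046 for Lhx6 and -0.21 to 0.57 for Tac1. Between regions in controls, 3 to 5 members were higher in hypothalamus when a library was left out and 6 in the fructose libraries (5 with loci summed), alternatives chosen after seeing the data. The Lhx6 region difference was 0.09, -0.094 to 0.24 with a library left out, -0.16 as a share of the library total and -0.049 in the fructose libraries. The cause of these shifts was not tested. With 3 or 4 libraries a group and unknown depth, changes inside the printed intervals cannot be told from 0.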
